A study of Homo sapiens with 2 samples.

Results

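The genes described here were 10 members of the NRF2 pathway, chosen by symbol: the transcription factor gene NFE2L2, its inhibitor KEAP1, and the targets HMOX1, NQO1, GCLC, GCLM, SRXN1, TXNRD1, SQSTM1 and SLC7A11. All 10 were found through their Ensembl gene identifiers among the 57736 genes listed for each library. The study sequenced poly(A)+ RNA from wild-type HEK293T cells, a line derived from human embryonic kidney cells and transformed with the large T antigen of SV40. Cells were grown at 37 °C, heated for 20 min at 43 °C and returned to 37 °C for 6 h, and both libraries, replicate 1 and replicate 2, belong to this 1 group. Cells of each replicate were lysed separately, but no label says that they came from separate cultures, so the spread between the replicates may be technical. No unheated library was analysed here, and the values below are levels after heat shock and recovery, from which no effect of heat can be read.

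Replicate 1 held 22529828 and replicate 2 held 26890199 expected counts, which are reads assigned to genes with reads of several possible origins divided among them. A count of 0 allows up to 3 counts, which was 0.133 CPM (counts scaled to the library total) in replicate 1 and 0.112 CPM in replicate 2, for counting error only. Nuclear copies of mitochondrial genes took 19.1% and 19.5% of all TPM (a transcript level scaled by length and by library total). Of 11 markers of mature kidney tubule and podocyte, 1 reached a TPM of 1 in both libraries and 4 had no counts in either, so the tissue label kidney was not matched by these genes. Of the markers of the embryonic kidney line, 9 of 10 matched genes were detected, with VIM the highest at 683.67 and 610.7 TPM. PAX8 was the lowest and was not detected, at 0.09 and 0.01 TPM.

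NRF2, the protein of NFE2L2, is a transcription factor that in unstressed cells is bound by KEAP1 and handed to a ubiquitin ligase built on CUL3, so that it is degraded. Oxidants and electrophiles modify cysteines of KEAP1, NRF2 then builds up, pairs with a small MAF protein in the nucleus and binds the antioxidant response element (ARE) of genes for glutathione synthesis, thiol reduction, quinone reduction and heme breakdown. BACH1 competes for the same element, and HMOX1 is also a well-known target of the heat shock factor HSF1.

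The ARE and the heat shock element are the sequences through which these factors act, so the matches in front of the members are shown first. The GRCh37 genome was searched on both strands in the 5000 bases before the start of the canonical transcript for TGANTCAGC, the ARE core in its stricter form, and for a heat shock element of 3 alternating blocks, GAA, TTC and GAA, with any 2 bases between blocks, and in the nearest 500 bases for the looser ARE core TGACNNNGC. The stricter core also fits the looser one where its N is C. Each line gives 1 match with the flanking bases, 5′ to 3′ on the strand named, and the capitals mark the matched letters.
NQO1, 455 bases before the start, chr16:69760900-69760928, minus strand: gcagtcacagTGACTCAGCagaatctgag
SRXN1, 272 bases before the start, chr20:634098-634126, minus strand: aaactcacccTGAGTCAGCccgcccgggc
SQSTM1, 352 bases before the start, chr5:179247543-179247571, minus strand: ggcctggccaTGACTCAGCaatatcctca
GCLC, 3361 bases before the start, chr6:53413242-53413270, plus strand: cagtttccctTGAGTCAGCggcttcgcga
GCLC, 3156 bases before the start, chr6:53413037-53413065, plus strand: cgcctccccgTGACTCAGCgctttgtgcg
HMOX1, 3940 bases before the start, chr22:35773139-35773167, minus strand: gaggcactggTGACTCAGCaaaatctagc
GCLM, 34 bases before the start, chr1:94375002-94375030, plus strand: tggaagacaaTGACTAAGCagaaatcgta
TXNRD1, 99 bases before the start, chr12:104609448-104609476, plus strand: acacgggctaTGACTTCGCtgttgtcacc
HMOX1, 3862 bases before the start, chr22:35773217-35773249, plus strand: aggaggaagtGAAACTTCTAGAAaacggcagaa
HMOX1, 388 bases before the start, chr22:35776691-35776723, minus strand: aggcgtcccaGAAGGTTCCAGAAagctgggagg
SRXN1, 2615 bases before the start, chr20:636437-636469, minus strand: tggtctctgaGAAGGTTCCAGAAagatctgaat

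The stricter ARE core was found before 5 of 10 members, against 15.3% of 19950 protein-coding genes. HMOX1 held a further pair of overlapping matches on opposite strands 3162 and 3160 bases before its start, and SQSTM1 held others at 1798 and 1320 bases. The looser core was found within 500 bases of the start in 4 of 10 members (NQO1, GCLM, TXNRD1 and SQSTM1), against 19.3% of genes. The heat shock element was found before 2 of 10 members (HMOX1 and SRXN1), against 7.0% of genes. Since the targets were chosen for being known to answer to NRF2, these counts describe the windows shown and are not a result about the members. The matches of SQSTM1 and GCLC and the nearer heat shock element of HMOX1 lie within the annotated span of the gene, ahead of the canonical start but behind that of longer transcripts, and outside annotated exons. The NQO1 match lies in an exon of the divergent transcript NQO1-DT, and both farther matches of HMOX1 shown above in exons of the unnamed gene ENSG00000282041. The GCLM match lies at the edge of the annotated gene and in no exon, although the bases shown beside it reach into an exon of another GCLM transcript. In NFE2L2, KEAP1 and SLC7A11 these letters did not occur in these windows.

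**Figure D1:**
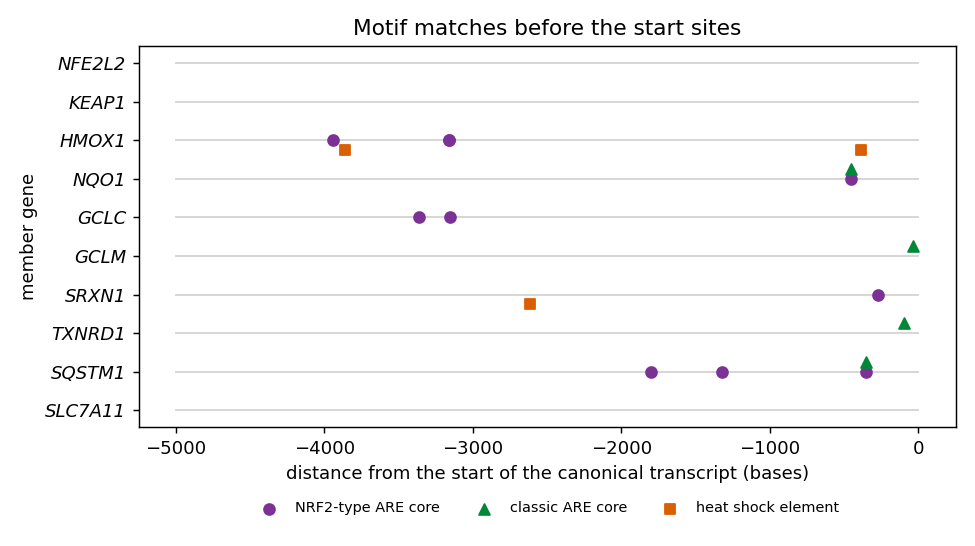
Position of motif matches (in bases, x axis) in the 5000 bases before the start of the canonical transcript of each member (y axis); circles are the stricter ARE core, triangles the looser core, searched only in the nearest 500 bases, and squares the heat shock element. The matches of NQO1 and SQSTM1 at 455 and 352 bases fit both ARE cores, and HMOX1 and SRXN1 have matches to the stricter ARE core and to the heat shock element.

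All 10 members were expressed in both libraries. Each reached a TPM of 1 in replicate 1 and in replicate 2, the rule for detection used here, which 26.3% of all listed genes and 63.7% of protein-coding genes met. The median of the members' mean levels was 21.1 TPM, beside 14.3 TPM over the 15188 detected genes, and 5 of 10 members lay above that median. Together the members held 258 TPM in replicate 1 and 298 TPM in replicate 2. The highest mean level, of SQSTM1, was 14.6-fold that of the lowest, NQO1.

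Among the regulators, NFE2L2 (ENSG00000116044, chr2:178083395-178257484, minus strand) had 43.63 TPM in replicate 1 and 75.14 in replicate 2, a mean of 59.4 ± 22.3 TPM (SD, n = 2). Replicate 2 was clearly the higher, and the quantifier's credibility intervals, 39.7 to 48.3 and 68.3 to 78.6 TPM, did not overlap. KEAP1 (ENSG00000079999, chr19:10596801-10614234, minus strand), the substrate adaptor that holds NRF2 for degradation, had 43.2 and 36.26 TPM, a mean of 39.7 ± 4.91 TPM (SD, n = 2). Here replicate 1 was the higher, and the credibility intervals overlapped. SQSTM1 (ENSG00000161011, chr5:179233398-179265078, plus strand) encodes p62, an autophagy receptor that binds KEAP1 and carries it to autophagosomes. It had 72.08 and 63.26 TPM, a mean of 67.7 ± 6.24 TPM (SD, n = 2). It stood at the 85.7th percentile of detected genes, and its credibility intervals did not overlap.

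The enzyme and transporter genes of glutathione supply had lower levels. GCLC (ENSG00000001084, chr6:53362139-53481768, minus strand), the catalytic subunit of the enzyme that starts glutathione synthesis, had 23.13 and 35.16 TPM, a mean of 29.1 ± 8.51 TPM (SD, n = 2). GCLM (ENSG00000023909, chr1:94350755-94375012, minus strand), the modifier subunit of the same enzyme, had 4.18 and 6.92 TPM, a mean of 5.55 ± 1.94 TPM (SD, n = 2). SLC7A11 (ENSG00000151012, chr4:139085251-139163503, minus strand), the light chain of the cystine/glutamate exchanger that brings in cystine for glutathione, had 3.27 and 8.08 TPM, a mean of 5.67 ± 3.4 TPM (SD, n = 2). All 3 were higher in replicate 2, and for all 3 the credibility intervals of the replicates did not overlap. SLC7A11 had the widest relative spread of the 10 members, an SD of 59.9% of its mean.

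In TPM the enzymes of thiol reduction, heme breakdown and quinone reduction differed less between the replicates. In counts NQO1 differed more than GCLC, as given below. TXNRD1 (ENSG00000198431, chr12:104609557-104744085, plus strand), the cytosolic thioredoxin reductase, had 36.9 and 44.47 TPM, a mean of 40.7 ± 5.35 TPM (SD, n = 2). SRXN1 (ENSG00000271303, chr20:627259-633844, minus strand), sulfiredoxin, which restores overoxidized peroxiredoxins, had 12.58 and 12.42 TPM, a mean of 12.5 ± 0.113 TPM (SD, n = 2). SRXN1 had the narrowest relative spread, an SD of 0.905% of its mean. HMOX1 (ENSG00000100292, chr22:35776354-35790207, plus strand), the inducible heme oxygenase, had 13.81 and 12.44 TPM, a mean of 13.1 ± 0.969 TPM (SD, n = 2). NQO1 (ENSG00000181019, chr16:69740899-69760571, minus strand), a quinone reductase, had 5.29 and 4.01 TPM, a mean of 4.65 ± 0.905 TPM (SD, n = 2). For these 4 genes the credibility intervals of the replicates overlapped. HMOX1 stood at the 48.0th percentile of detected genes and NQO1 at the 24.3rd, so neither gene was among the highly expressed genes after 6 h of recovery.

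By mean TPM the order was SQSTM1, NFE2L2, TXNRD1, KEAP1, GCLC, HMOX1, SRXN1, SLC7A11, GCLM and NQO1. Among neighbours in this order, the values of the replicates were separate only between KEAP1 and GCLC, between GCLC and HMOX1, and between SRXN1 and SLC7A11. SQSTM1 and NFE2L2, TXNRD1 and KEAP1, SLC7A11 and GCLM, and GCLM and NQO1 took opposite orders in the replicates. By the replicate values, the plot thus shows a higher set of 4 genes, with GCLC and then the pair HMOX1 and SRXN1 below it. SLC7A11, GCLM and NQO1 formed a low set. The step from KEAP1 to GCLC was narrow in replicate 2, at 36.26 and 35.16 TPM. Their credibility intervals there overlapped, at 33.1 to 41.2 and 31.5 to 39.7 TPM.

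**Figure D2:**
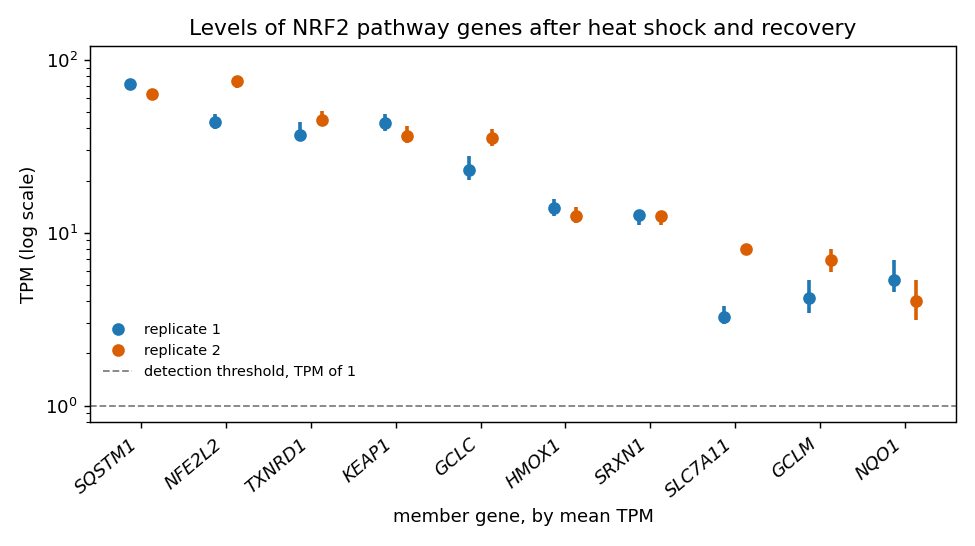
TPM of each member (y axis, log scale) in replicate 1 (blue) and replicate 2 (orange), with genes ordered by mean TPM on the x axis; vertical lines are the quantifier's credibility intervals in each library. All 10 genes lie above the dashed detection threshold of 1 TPM, and the replicates of NFE2L2, GCLC, GCLM and SLC7A11 stand apart with replicate 2 higher, and those of SQSTM1 with replicate 1 higher.

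The scale matters for the long transcripts. SLC7A11, with an abundance-weighted transcript length of 9645.0 bases in replicate 1, collected 572.63 and 1572.0 expected counts, more in each library than HMOX1 with 434.0 and 452.0, although its TPM was the lower in each. The fewest reads fell on NQO1, with 103.17 and 85.7 expected counts, and the most on SQSTM1, with 2293.02 and 2350.71. Ratios in TPM and in counts can differ without a change in length. SRXN1 had a weighted length of 2698.0 bases in both libraries, and its log2 ratio of replicate 2 to replicate 1 was -0.02 in TPM and -0.11 in counts. How much of such a gap comes from length was not tested for any member. The weighted length can also move between libraries. From replicate 1 to replicate 2 it decreased by 11.0% for GCLC and decreased by 8.15% for TXNRD1, and the log2 ratio of replicate 2 to replicate 1 for TXNRD1 was 0.27 in TPM and 0.05 in counts.

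Some reads of the members can belong to other genes. Of the 50-base sequences of SRXN1 transcripts, 90.561% also occur in ENSG00000270299, a protein-coding gene that overlaps it on the same strand and was assigned 5.03 and 0.0 expected counts. The division of reads between these 2 genes is uncertain. Within its own model the quantifier gave the SRXN1 counts of 607.97 and 683.0 an SD of 6.12 and 4.28 counts. For SQSTM1 20.562% of sequences were shared, mostly with MRNIP on the opposite strand, which had 1379.62 and 1804.54 expected counts. For SLC7A11 9.265% were shared, mostly with the antisense gene SLC7A11-AS1 at 44.22 and 102.59 expected counts. NFE2L2 overlaps AGPS and HNRNPA3 on the opposite strand and shared 16.669% of its sequences with other genes. Most of these were shared with ENSG00000213963, a long noncoding RNA gene on the same strand at 50.61 and 97.56 expected counts. NQO1 shared 16.726%. HMOX1 and TXNRD1 shared none. The sources used here do not say whether counting used strand, so reads from opposite strands of overlapping genes may not have been told apart.

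With 1 group, the only comparison of samples that can be made is between the replicates, and it asks whether the reads of the libraries differ by more than counting error. An exact two-sided binomial test was applied to each gene with 10 or more counts over both libraries, with scaling by trimmed mean of M values and Benjamini-Hochberg adjustment over 19714 genes. The test compares these libraries and not conditions. Of the members 7 of 10 passed an adjusted p of 0.05, 4 with the higher share in replicate 2 and 3 in replicate 1, against a background of 42.2% of all genes tested (22.1% higher in replicate 2 and 20.1% higher in replicate 1). All 10 members have 100 or more counts over both libraries, and among genes with that many 55.3% passed. At least a 2-fold difference was found for 1 member, SLC7A11, and for 3.89% of genes with that many counts. The median log2 ratio, replicate 2 over replicate 1, was -0.03 over the members and 0.021 over the genes tested.

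SLC7A11 was 2.26-fold higher in replicate 2, with a log2 ratio of 1.17 (95% counting interval 1.04 to 1.31) and an adjusted p of 2.21e-67 in the exact binomial test. GCLM was 1.55-fold higher (log2 0.64, interval 0.43 to 0.85), NFE2L2 1.5-fold higher (log2 0.58, interval 0.47 to 0.69) and GCLC 1.26-fold higher (log2 0.33, interval 0.18 to 0.49). Thus both subunits of glutamate-cysteine ligase, the light chain of the cystine exchanger and the transcription factor gene were higher in the same library, while GSS, which completes glutathione, and the heavy chain gene SLC3A2 were higher in replicate 1 (log2 -0.27 and -0.19, adjusted p = 2.62e-06 and 0.000507, exact binomial test). NQO1 was 1.45-fold higher in replicate 1 (log2 -0.54, interval -0.97 to -0.11), KEAP1 1.25-fold (log2 -0.32, interval -0.45 to -0.19) and SQSTM1 1.19-fold (log2 -0.25, interval -0.33 to -0.16). The adjusted p was 0.0269 for NQO1, 7.1e-06 for KEAP1 and 4.19e-08 for SQSTM1 in the exact binomial test. HMOX1 with a log2 ratio of -0.22 (interval -0.42 to -0.03, adjusted p = 0.0513), SRXN1 with -0.11 (interval -0.27 to 0.05, adjusted p = 0.278) and TXNRD1 with 0.05 (interval -0.05 to 0.15, adjusted p = 0.471) did not pass the exact binomial test. The call of HMOX1 turned on the setting, since its adjusted p in the exact binomial test was 0.0399 with DESeq2 size factors and 0.0391 with the adjustment over genes with 100 or more counts, which made 8 of 10 members called.

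The ratio between the libraries moved with GC content across genes with 100 or more counts over both libraries, and across the members too. Genes with that many counts and a known GC content were put into 10 classes by the mean GC content of their reference transcripts. The median log2 ratio was 0.637 in the class of lowest GC content (up to 40.5%) and -0.254 in the class of highest (from 61.8%). Over the 10 members, which share both libraries, Pearson's r of log2 ratio and GC content was -0.793 and Spearman's rho was -0.867. The members higher in replicate 2 were those of low GC content, from SLC7A11 at 38.6% to GCLC at 45.4%, while KEAP1 had 61.6% and SQSTM1 60.3%.

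With the GC trend removed, 5 of 10 members passed, 4 higher in replicate 2 and 1 higher in replicate 1, against 28.9% of genes (42.5% of the same genes with the trend kept). The shares of genes in this paragraph were not limited to those with 100 or more counts, as all members have. They are therefore not matched to the members in counts. SLC7A11 kept a log2 ratio of 0.55 (adjusted p = 3.15e-14), GCLM 0.4 (adjusted p = 0.00075), and NFE2L2 and GCLC 0.22 each (adjusted p = 0.000465 and 0.0247) in the exact binomial test. NQO1, with 48.1% GC, kept a ratio of -0.56. KEAP1 at -0.1 (adjusted p = 0.305) and SQSTM1 at -0.04 (adjusted p = 0.519) no longer passed the exact binomial test. The partner genes GSS and SLC3A2, higher in replicate 1 with the trend kept, had log2 ratios of only -0.09 and -0.04 with it removed. Where a biological coefficient of variation of 0.1 between replicates was assumed in edgeR's exact test, 1 of 10 members passed, SLC7A11 with an adjusted p of 5.86e-06, against 7.69% of genes.

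**Figure D3:**
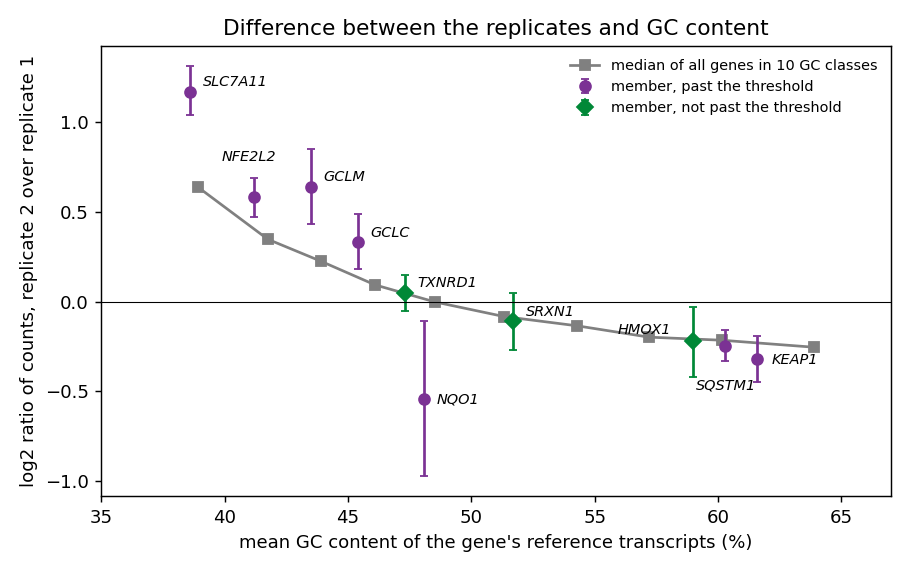
Log2 ratio of counts, replicate 2 over replicate 1 (y axis), against the mean GC content of each gene's reference transcripts (x axis, percent); points are members with 95% counting intervals, circles past and diamonds not past an adjusted p of 0.05, and grey squares are medians of 10 GC classes of genes with 100 or more counts over both libraries. SLC7A11, GCLM, NFE2L2 and GCLC lie above the grey line and NQO1 below it, while TXNRD1, SRXN1, HMOX1, SQSTM1 and KEAP1 lie close to it.

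Levels per length were then compared within each library between members and their partners. NFE2L2 and KEAP1 stood at nearly equal TPM in replicate 1, a ratio of 1.01, while in replicate 2 NFE2L2 was 2.07-fold higher. NFE2L1, the related factor NRF1 of the proteasome response, was the more abundant transcript, and the ratio of NFE2L2 to it was 0.384 and 0.702. The ratio of NFE2L2 to BACH1, the competing repressor, was 12.5 and 8.92, from 3.5 and 8.42 TPM of BACH1. KEAP1 exceeded CUL3, the scaffold of its ubiquitin ligase, by 1.7-fold and 1.09-fold in TPM, but the mean ratio was 0.576 in expected counts, which are not scaled to length. Thus in TPM the factor, its inhibitor and the ligase scaffold were within about the same range of levels, and BACH1 was well below them.

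GCLC stood 5.53-fold and 5.08-fold above GCLM in TPM, the steadiest of the TPM ratios above 1. In counts these genes moved less alike, with log2 ratios of replicate 2 over replicate 1 of 0.33 for GCLC and 0.64 for GCLM. In the cystine exchanger the light chain was much the lower, and the ratio of SLC7A11 to its heavy chain SLC3A2 was 0.0517 and 0.137. SLC3A2 also pairs with other amino acid transporters. The ratio of TXNRD1 to its substrate TXN was 0.276 and 0.323, and that of SRXN1 to its substrate PRDX1 was 0.068 and 0.0696. The inducible heme oxygenase stayed below the constitutive form HMOX2, at a ratio of 0.124 and 0.138. SQSTM1 exceeded NBR1, a related autophagy receptor, by 2.49-fold and 2.09-fold in TPM, while the mean ratio in expected counts was 0.888. All 10 TPM ratios were on the same side of 1 in both libraries, though NFE2L2 over KEAP1 was close to 1 in replicate 1 and KEAP1 over CUL3 in replicate 2.

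**Figure D4:**
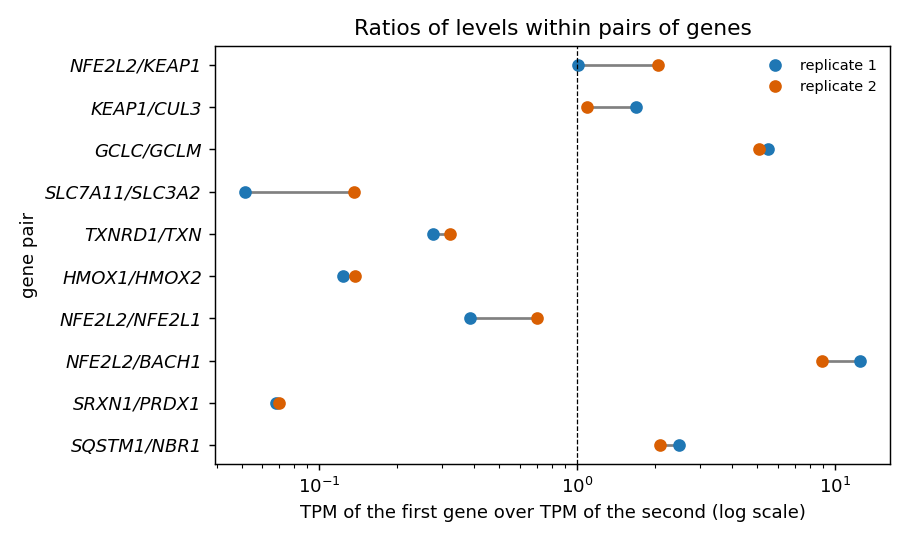
Ratio of the TPM of the first gene to that of the second (x axis, log scale) for 10 gene pairs (y axis) in replicate 1 (blue) and replicate 2 (orange), joined by a line; the dashed line marks a ratio of 1. GCLC/GCLM at 5.53 and 5.08 and SRXN1/PRDX1 at 0.068 and 0.0696 nearly coincide between replicates, whereas SLC7A11/SLC3A2 and NFE2L2/KEAP1 are spread.

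The members were set beside 8 lists of related genes, none of which contains a member. Of 135 genes named, 134 were matched and 117 (87.3%) were detected. In the test between libraries 76 of 123 genes (61.8%) passed, 16 higher in replicate 2 and 60 higher in replicate 1, against the background of 42.2%. Of the 117 list genes with 100 or more counts over both libraries 63.2% passed, against 55.3% of all genes with that many. With the GC trend removed 60 of 123 (48.8%) passed, against 28.9% of all genes tested in that way. That share was not limited to genes with 100 or more counts, so how much of the gap comes from higher counts was not tested.

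Of the 20 further regulators, 19 were detected. In the test between libraries 11 (55.0%) passed, 5 higher in replicate 2 and 6 in replicate 1. That compares with 42.2% of all genes tested and 55.3% of those with 100 or more counts. Once the GC trend was removed 7 passed, against 28.9% of all genes tested in that way. The most abundant were NFE2L1 at 113.73 and 107.09 TPM, GSK3A, a kinase that marks NRF2 for degradation apart from KEAP1, at 116.14 and 99.58, and CAND1, which exchanges the adaptors of CUL3-type ligases, at 51.51 and 72.41. SYVN1, another ligase for NRF2, followed at 53.16 and 54.31 TPM. Besides SYVN1, transcripts for the KEAP1 and GSK3A routes of NRF2 degradation were present, with CUL3 at 25.48 and 33.29 TPM and the adaptor BTRC at 17.34 and 17.76. Among the small MAF partners, MAFG had 11.77 and 11.04 TPM, MAFK 8.91 and 8.41, and MAFF 2.68 and 2.18. NFE2, the family member of blood cells, was the lowest at 0.28 and 0.23 TPM, below the detection threshold. BACH1 had the largest ratio, a log2 of 0.93 (adjusted p = 1.65e-19, exact binomial test), higher in replicate 2 as NFE2L2 was.

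The leading genes of glutathione and thioredoxin use had far higher TPM than the members that supply them. Of 29 glutathione genes 26 were detected, led by the peroxidase GPX4, which reduces lipid peroxides, at 598.68 and 504.24 TPM and the transferase GSTP1 at 531.44 and 402.99. GPX1 had 199.1 and 157.0 TPM and GSR, glutathione reductase, 150.36 and 141.2, and GPX7 was lowest at 0.09 and 0.0. In this list 21 of 28 genes tested passed, 18 of them higher in replicate 1, and 13 passed once the GC trend was removed. Among those with 100 or more counts GSTP1 had the largest log2 ratio, -0.5. All 20 thioredoxin and peroxiredoxin genes were detected, led by PRDX2 at 594.83 and 464.27 TPM, PRDX5 at 221.36 and 176.27, PRDX1 at 185.1 and 178.44 and PRDX6 at 142.64 and 142.14. Here 13 of 20 (65.0%) passed, against 42.2% of all genes tested and 55.3% of those with 100 or more counts. Of these 13 genes 3 were higher in replicate 2, among them SESN3, a sestrin, with a log2 ratio of 1.03. Once the GC trend was removed 12 passed, against 28.9% of all genes. The lowest of the list was MSRA, a methionine sulfoxide reductase, at 2.46 and 2.21 TPM.

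All 10 genes of NADPH supply were detected, with a median level of 73.8 TPM, the highest of the 8 lists. They were led by TKT at 420.68 and 345.79 TPM and TALDO1 at 204.86 and 170.77, both of the pentose phosphate pathway, then PGD at 169.78 and 152.5 and MTHFD2 at 144.46 and 139.54. ME1, malic enzyme, was lowest at 7.1 and 8.75 TPM. In the list 8 of 10 genes (80.0%) passed, all 8 higher in replicate 1. Of all genes tested 42.2% passed, 20.1% with replicate 1 the higher. Of genes with 100 or more counts 55.3% passed. PGLS, at 67.43 and 56.25 TPM, had the largest log2 ratio, -0.36. With the GC trend removed 7 passed, against 28.9% of all genes tested in that way, and the ratio of PGLS was -0.1. Of the superoxide dismutase and catalase list 5 of 6 genes were detected, with SOD1 at 304.33 and 253.91 TPM and PARK7 at 275.5 and 250.78. In that list 2 of 5 tested passed, and 2 with the GC trend removed. SOD3, the secreted enzyme, was not detected, at 0.15 and 0.13 TPM.

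All 12 heme and iron genes were detected. FTH1, the ferritin heavy chain and a known NRF2 target, had 1677.88 and 1444.37 TPM, and the light chain FTL had 412.65 and 365.31. HMOX2 had 110.94 and 89.95 TPM and FECH, which makes heme, 79.9 and 78.44, and the iron exporter SLC40A1 was lowest at 2.73 and 2.76. In this list 7 of 12 (58.3%) passed, against 42.2% of all genes tested and 55.3% of those with 100 or more counts. Of these 7 genes 6 were higher in replicate 1, and IREB2, an iron regulatory protein, was higher in replicate 2 (log2 0.58). With the GC trend removed 7 passed, against 28.9% of all genes. Thus iron storage transcripts were far above HMOX1, whose product releases iron from heme.

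Quinone and carbonyl detoxification was the list with the most genes not detected, 10 of 23. AKR1B10 and ADH7 had 0 expected counts in both libraries, which allows up to 0.133 and 0.112 CPM. The list was led by AKR1B1 at 135.86 and 118.12 TPM, EPHX1 at 97.71 and 83.89, CBR1 at 62.07 and 50.81 and NQO2 at 58.7 and 53.12. NQO2, the relative of NQO1, was the more abundant of the quinone reductases in each library. In the list 8 of 16 genes tested (50.0%) passed, 7 higher in replicate 1. Of all genes tested 42.2% passed, 20.1% with replicate 1 the higher, and of those with 100 or more counts 55.3%. Once the GC trend was removed 3 passed, against 28.9% of all genes. Of 14 matched autophagy partners of p62, 12 were detected, led by GABARAP at 359.57 and 307.17 TPM, CALCOCO2 at 53.71 and 58.57, TAX1BP1 at 35.56 and 63.72 and OPTN at 39.25 and 42.78. MAP1LC3A was lowest at 0.08 and 0.18 TPM. In this list 6 of 12 (50.0%) passed, 3 in each direction, and 9 with the GC trend removed. The shares over all genes were again 42.2%, or 55.3% with 100 or more counts, and 28.9% with the trend removed. RB1CC1, a scaffold of the autophagy initiation complex, had a log2 ratio of 1.37, the largest among those with 100 or more counts.

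**Figure D5:**
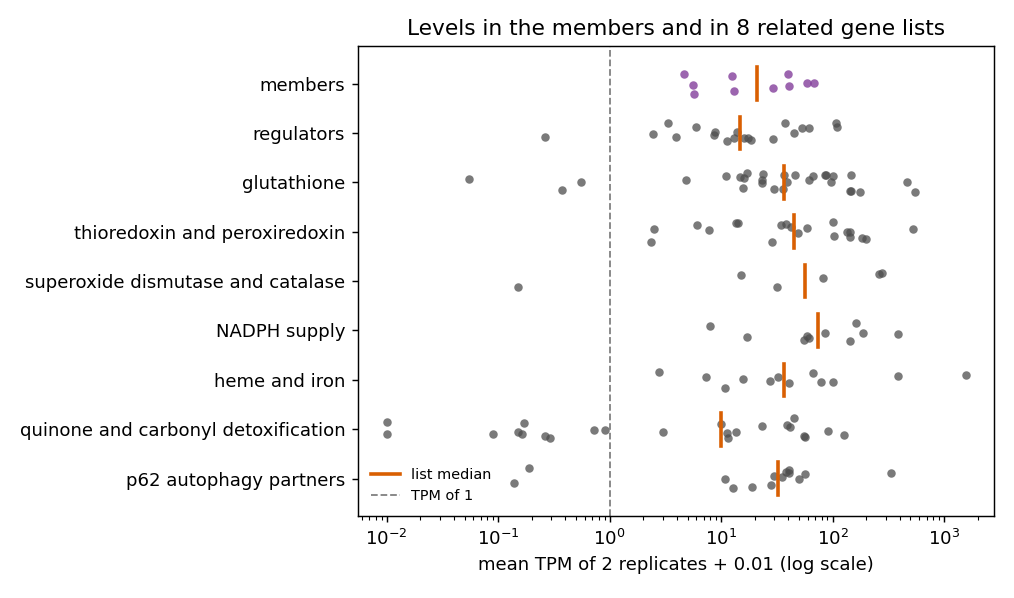
Mean TPM of the replicates plus 0.01 (x axis, log scale) of each gene in the members (purple) and in 8 lists of related genes (grey, y axis); orange bars are list medians and the dashed line marks 1 TPM. The members, with a median of 21.1 TPM, lie between 4.65 and 67.7 TPM, while the quinone and carbonyl detoxification list holds 10 genes below the detection rule and FTH1 of the heme and iron list is the highest gene plotted.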

How the data were processed

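Poly(A)+ RNA of HEK293T cells after heat shock and recovery was sequenced in 2 libraries of 1 group, with 50-base reads. The molecule is entered as genomic DNA in the labels, but their protocol describes RNA libraries. The heating time is that of the labels, and the study's text gives a longer one, stated for a shorter recovery. Per the submitters' processing notes, the authors trimmed reads with Trimmomatic 0.36, aligned them to GRCh37/hg19 with STAR 2.6.1c and quantified Ensembl genes with RSEM 1.3.1. The study's methods name featureCounts instead, but the columns of the deposited tables are those of RSEM. The deposited values are expected counts, TPM with its posterior mean and credibility bounds, and FPKM, for each library, and a table of both libraries together. RSEM divides reads of several possible origins between genes, so values of overlapping genes depend on that division.

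Levels are TPM as deposited by the authors. For tests, expected counts were rounded to whole numbers. An exact two-sided binomial test of each gene was made with R 4.3.3 and edgeR 4.0.16 scaling, with Benjamini-Hochberg adjustment over genes with 10 or more counts over both libraries and a pseudocount of 0.5 counts for ratios. edgeR's quasi-likelihood test could not be fitted, since 1 group has no contrast. The test was checked on simulated data. DESeq2 1.42.0 size factors were an alternative, and for the GC trend the median ratio in 50 GC classes was removed. Symbols, GC content and positions came from GENCODE annotation lifted to GRCh37, a release other than the authors' own: of 168 listed symbols, 163 matched by gene identifier, 2 by transcript identifier, and 3 not at all.

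The named genes were the 10 members, and of each list the 4 highest, the lowest and the one with the largest ratio among genes with 100 or more counts, plus all regulators, pair partners and list genes with 0 counts. The members and lists were chosen with earlier results of these data known.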

Additional observations from a re-analysis of the deposited data

How the results depend on the processing

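Every member stayed detected with TPM of at least 0.1, with a lower credibility bound of at least 1 TPM, with 1 CPM and in either library alone, and 7 had a TPM of at least 5 in both. The call counts of the members and of all related genes together kept within 1.5 times under library-total scaling, DESeq2 size factors, both other count minimums and GC removal, but with GC removed those of the regulators (7), glutathione (13) and quinone and carbonyl detoxification (3) lists moved further. With edgeR's exact test at an assumed coefficient of variation of 0.1 they were 1 of the members and 5 of the 123 related genes tested. That test allows more spread between replicates, and 7.69% of all genes tested passed it. HMOX1 passed with DESeq2 size factors and with a minimum of 100 counts (adjusted p = 0.0399 and 0.0391, exact binomial test), and KEAP1 and SQSTM1 lost their calls with GC removed. Levels rose 1.24-fold when nuclear copies of mitochondrial genes were left out, and 1.37-fold and 1.39-fold over protein-coding genes. Without length scaling, in expected counts, KEAP1/CUL3 turned to 0.576 and SQSTM1/NBR1 to 0.888, and the ratios were 1.73 for GCLC/GCLM, 0.648 for SLC7A11/SLC3A2, 0.819 for TXNRD1/TXN, 0.283 for HMOX1/HMOX2, 3.39 for NFE2L2/BACH1 and 0.19 for SRXN1/PRDX1. With the posterior mean TPM NFE2L2/BACH1 was 7.63, and the cause was not tested. No paired analysis was possible because both libraries belong to 1 group. Depth limits NQO1 most, with the fewest reads of the members.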
